A study of Mus musculus with 6 samples.

Results

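The carbonic anhydrase genes of HL-1 cells, a mouse line derived from atrial cardiomyocytes, were examined after silencing of the long noncoding RNA Malat1. Members were taken by gene symbol from a list of 10 carbonic anhydrases. Of these, 8 had a row among the 21269 genes of the table, namely Car2, Car3, Car5b, Car7, Car11, Car12, Car13, and Car14, and Car4 and Car8 were not analysed here. The family was chosen because Car5b had the largest fall among genes called lower, so the values of Car5b are given as a description and no test is attached to them. LNA Control cells were transfected with 50 nM of a control gapmer (named ctrl2 in the series description) and LNA Malat1 cells with 50 nM of a gapmer against Malat1, a short LNA-ended DNA strand that pairs with an RNA and directs its cleavage. Each group had 3 libraries. Transfection followed 24 hours after seeding and harvest 48 hours after transfection, and all libraries came from the same cell line, grown with norepinephrine. The labels do not say whether replicates were separate cultures, so p-values measure only the spread between these libraries.

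Carbonic anhydrases are zinc enzymes that interconvert carbon dioxide and water with bicarbonate and a proton. Family members differ in where they act, since some are cytosolic, others are mitochondrial, and others sit in the plasma membrane with the catalytic domain outside the cell, while the carbonic anhydrase-related proteins keep the fold but not the activity. In heart muscle the enzymes work beside bicarbonate and proton transporters that set intracellular pH.

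The coding sequence at the zinc site separates the catalytic members from the related one, and is printed for that reason. Each line gives 30 bases of the coding strand of mm10, 5′ to 3′, with the codons at the positions of the first and second zinc-binding histidines of Car2 in capitals. Histidine is encoded by cac or cat.
Car2: atccagtttCACtttCACtggggctcatct
Car3: cgccaattcCATcttCACtggggctcctct
Car7: aagcagctcCACttcCACtggggcaagaag
Car13: cggcagttcCATttgCACtgggggtcagca
Car5b: aagcagtttCATtttCATtggggagccatt
Car12: gagcagctgCACttgCACtgggggaaccgc
Car14: gcccagctcCACctgCACtggggtcagaga
Car11: agtgaactgCGCctgCTAtttggagctcga

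All 3 zinc-binding positions of Car2, the third of which lies further downstream, held histidine codons in 7 of the 8 genes, and 0 of 3 in Car11, which encodes a carbonic anhydrase-related protein. The Car5b stretch lies on the minus strand at chrX:163991402-163991431 in exon 4, that of Car12 at chr9:66747638-66747667 in exon 4, that of Car7 at chr8:104547725-104547754 in exon 3, and that of Car11 at chr7:45702539-45702568 in exon 4. Those of Car2 (chr3:14895060-14895089), Car3 (chr3:14866841-14866870), and Car13 (chr3:14650697-14650726) lie in exon 3 on the plus strand, and that of Car14 (chr3:95900297-95900326) in exon 4 on the minus strand. Over aligned positions, the protein encoded by Car2 shared 56.9% of residues with that of Car3, 56.9% with that of Car13, 55.0% with that of Car7, and 51.5% with that of the mitochondrial Car5b. It shared 37.5% with that of Car12, 37.2% with that of Car14, and 33.3% with that of Car11. The membrane enzymes Car12 and Car14 were closer to each other (43.0%) than to Car2.

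**Figure D1:**
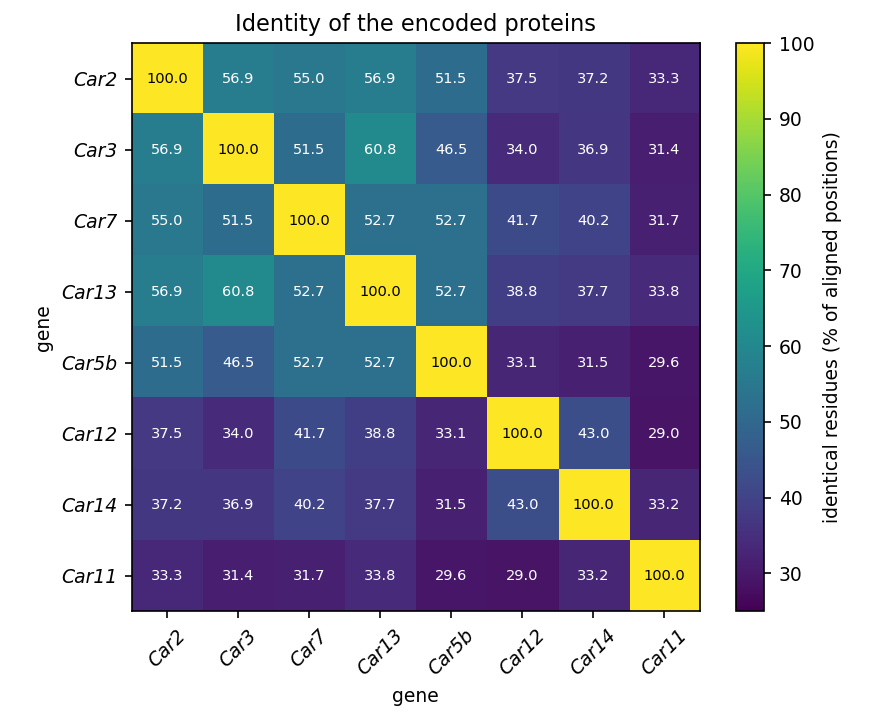
Percentage of identical residues over the aligned positions for each pair of the 8 encoded proteins, translated from annotated coding sequences. The cytosolic and mitochondrial members share 46.5% to 60.8% with each other, and Car11 shares 29.0% to 33.8% with any other member.

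The libraries held between 4512277 and 5592891 reads on genes, as recovered from the rounding of the deposited values. Malat1, the target, was listed at 5051, 5197, and 4369 under LNA Control, then 2833, 2792, and 2732 under LNA Malat1. Over all genes compared, LNA Malat1 replicates 1 and 3 differed by less than the sampling noise (chi-square of 0.949 per gene, where noise alone gives about 1), as against 1.16 for replicates 2 and 3, and 1.84 to 4.23 for the LNA Control pairs. Replicates 1 and 3 were therefore counted as 1 sample wherever a mean ± SD is given for the silenced cells (n = 2). Replicates 1 and 2 did not clearly exceed the noise either (1.01), so this n is itself uncertain. The tests used all 3 LNA Malat1 libraries, so their adjusted p-values rest on a larger n than these SDs. With replicates 1 and 3 as 1 sample in the fit, 796 genes in place of 1252 were called higher and 427 in place of 457 lower, and Car12 was still called. The limma adjusted p was then 9.6e-05 for Car12 in place of 1.8e-06, and 0.011 for Car7 in place of 0.0044. Of the 10 cardiomyocyte markers listed, 9 had a row. Ryr2 (2237 to 2706), Gata4 (770 to 923), Tnnt2 (647 to 746), and Actc1 (409 to 475) were well counted in all libraries. Nkx2-5 (187 to 211), Tnni3 (164 to 196), and Myl4 (30 to 49) had fewer counts. Myl7, the atrial myosin light chain, was low (18 to 32), Myh6 was near 0 (0 to 7), and Nppa was not analysed here. Of the 8 tested, none was called. At the limma adjusted p alone, Tnnt2 was higher (log2 fold change 0.15, adjusted p = 0.034) and Gata4 lower (-0.21, adjusted p = 0.0079). The fibroblast list (5 of 6 genes with a row, Col1a2 at 0 or 1 in every library) summed to 5304 to 5911 in LNA Control and 4683 to 4817 in LNA Malat1, and the cardiomyocyte list to 4863 to 5108 and 4644 to 4757. The smooth muscle list (4 of 4) summed to 1512 to 1678 and 1553 to 1701, the endothelial list (3 of 6) to 22 to 31 and 36 to 37, the leukocyte list (2 of 5) to 14 to 25 and 36 to 47, and the erythroid list (2 of 7) to 5 to 10 and 4 to 8. The part of these shifts in the results for the carbonic anhydrases was not tested. In such bulk RNA, fewer cells of a kind and less RNA per cell cannot be told apart.

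The question was whether carbonic anhydrase expression differed after Malat1 silencing. Of the family members, Car12 fell, Car7 was higher by a smaller amount, Car5b was lower by the most and was chosen for it, and the other members fitted did not pass the test. limma was fitted to log2(normalized count + 1) over the 15650 genes whose mean reached 5 normalized counts. A gene was called where its adjusted p did not exceed 0.05 and the groups differed at least 1.5-fold. Of the 8 members, 7 passed this filter. Among the 6 apart from Car5b, 1 was called, against 10.9% of all genes tested, and 2 passed the adjusted p alone, against 28.3%. Of these 6 genes, 3 had a positive log2 fold change and 3 a negative one. Their median was 0.02, and that of all genes tested was also 0.02. The libraries of the groups did not overlap in 3 of the 6, against 41.3% of all genes tested.

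**Figure D2:**
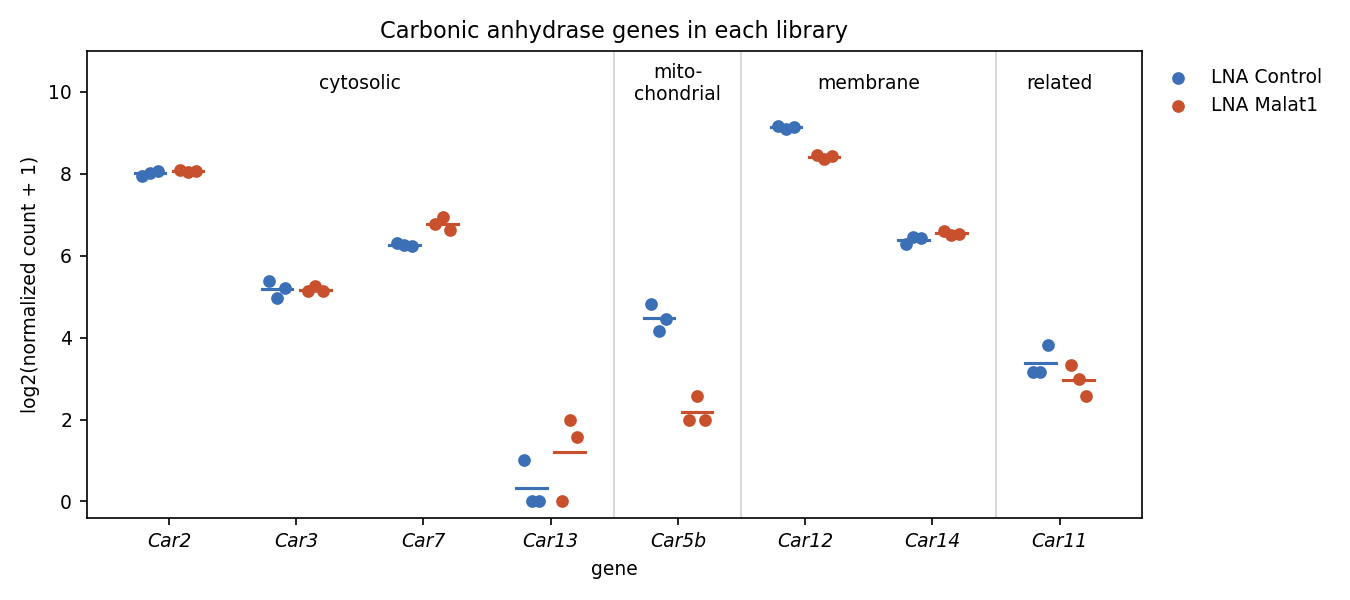
Level of each of the 8 genes in each library as log2(normalized count + 1), grouped by the site of the encoded protein, with a bar at the mean of the 3 libraries on this scale. The LNA Malat1 libraries of Car5b and Car12 lie below all LNA Control libraries, those of Car7 and Car14 lie above, and those of Car2, Car3, Car11, and Car13 overlap.

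Car12 (ENSMUSG00000032373, chromosome 9, positions 66713686 to 66766845) encodes a transmembrane carbonic anhydrase whose catalytic domain faces outward. It had normalized counts of 572, 543, and 565 under LNA Control, then 348, 326, and 345 under LNA Malat1. Every LNA Malat1 library lay well below every LNA Control library, and the spread within each group was small. The mean fell from 560.0 ± 15.1 (SD, n = 3) to 336.3 ± 14.5 (SD, n = 2), or 60.0% of the control level. On the log2 scale the change was -0.72 with an SE of 0.05 (adjusted p = 1.8e-06 by limma). Over all alternative settings it lay between -0.74 and -0.66.

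Car14 (ENSMUSG00000038526, chromosome 3, positions 95897768 to 95904691), another transmembrane enzyme and the closest to Car12 among the encoded proteins aligned, was not called. Its normalized counts were 77, 86, and 85 under LNA Control, then 96, 90, and 92 under LNA Malat1. The groups did not overlap, but the difference did not pass the test (log2 fold change 0.16, 95% interval -0.06 to 0.39, limma adjusted p = 0.26). The annotation places the end of Aph1a, on the opposite strand, over the end of Car14. Whether the counting used the strand is not stated, and this decides if reads on both genes were left out.

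Among the cytosolic enzymes, Car7 (ENSMUSG00000031883, chromosome 8, positions 104534689 to 104550343) is best known from neurons. It had normalized counts of 78, 76, and 74 under LNA Control, then 109, 122, and 97 under LNA Malat1. All LNA Malat1 libraries lay above LNA Control, whose values were close together, and the LNA Malat1 libraries were more widely spread. The difference was 0.51 on the log2 scale with an SE of 0.11 (adjusted p = 0.0044 by limma), under the 1.5-fold minimum. With LNA Malat1 replicate 3, its lowest library of the group, left out, the log2 fold change was 0.60 and Car7 was called.

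Car2 (ENSMUSG00000027562, chromosome 3, positions 14886273 to 14900770), the widespread and highly active cytosolic form, was listed at 244, 258, and 269 under LNA Control, then 270, 261, and 267 under LNA Malat1. The groups overlapped, and the log2 fold change was 0.05 with a 95% interval of -0.09 to 0.19 (limma adjusted p = 0.59). Car3 (ENSMUSG00000027559, chromosome 3, positions 14863512 to 14872523), a form of low activity that is abundant in muscle and fat, had normalized counts of 41, 30, and 36 under LNA Control, then 34, 37, and 34 under LNA Malat1. Here too the groups overlapped, and the interval of the log2 fold change was wider (-0.02, 95% interval -0.40 to 0.37, limma adjusted p = 0.96). Car13 (ENSMUSG00000027555) was listed at 1, 0, and 0 under LNA Control, then 0, 3, and 2 under LNA Malat1, too low to be tested.

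These 3 cytosolic genes lie within 259.0 kb of chromosome 3 (positions 14641727 to 14900770), on the same strand. Their levels differed widely, with Car2 at 100.7 to 111.1 normalized counts per kilobase of exon in the LNA Control libraries and Car13 at no more than 0.43. Within 50 kb of this span the table holds E2f5, a cell cycle transcription factor gene, and Rbis. For E2f5 the log2 fold change was -0.24 (limma adjusted p = 0.10) and for Rbis 0.02 (limma adjusted p = 0.95), so no gene of this region passed the test.

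Car5b (ENSMUSG00000031373), on the minus strand of the X chromosome (positions 163976822 to 164027997), encodes a mitochondrial carbonic anhydrase. It had normalized counts of 27, 17, and 21 under LNA Control, then 3, 5, and 3 under LNA Malat1. The groups lay far apart, but both were low. In recovered reads these values correspond to 25, 16, and 24 against 3, 5, and 3, or 65 reads in LNA Control and 11 in LNA Malat1 in all. The mean was 21.7 ± 5.0 (SD, n = 3) with the control gapmer against 4.0 ± 1.4 (SD, n = 2) with the Malat1 gapmer, which is 18.5% of the control level. The log2 fold change was -2.28.

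That value was the largest fall among 452 genes called lower whose groups did not overlap, which is how the gene was chosen. The next, Apln, which encodes apelin, had -2.26. With a pseudocount of 5 in place of 1, the log2 fold change of Car5b was -1.61 and 2 genes had larger falls. With LNA Control replicate 1 or LNA Malat1 replicate 1 left out, Apln stood first. Apln was also first with LNA Malat1 replicates 1 and 3 as 1 sample (-2.24, against -2.19 for Car5b). Among all 3325 genes tested with a mean normalized count under 20, where Car5b lies, 1.11% were called lower and 17.2% higher.

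No gene around Car5b on the X chromosome passed the test. Within 200 kb the table holds Ap1s2, which encodes a clathrin adaptor subunit, Zrsr2, which encodes a splicing factor of the minor spliceosome, and Siah1b, which encodes a ubiquitin ligase. Zrsr2, the nearest on the same strand, had normalized counts of 537, 620, and 623 under LNA Control, then 595, 596, and 550 under LNA Malat1. Its groups overlapped, with a log2 fold change of -0.03 (95% interval -0.17 to 0.11, limma adjusted p = 0.77). Ap1s2 had 315, 293, and 314 against 332, 317, and 328, without overlap but close together (log2 fold change 0.08, 95% interval -0.04 to 0.21, limma adjusted p = 0.31). For Siah1b, with overlapping groups, it was 0.09 (95% interval -0.15 to 0.33, limma adjusted p = 0.57).

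The genes whose profile over the 6 libraries was most like that of Car5b were found by the root mean square distance between centred log2(normalized count + 1) values, among 12325 other genes with a mean of at least 20. Apln was closest (0.20), with 194, 141, and 189 under LNA Control, then 38, 37, and 31 under LNA Malat1. It shared with Car5b a lower value in LNA Control replicate 2 than in the other LNA Control libraries, which for Car5b rests on 16 recovered reads against 25 and 24. Prmt2, an arginine methyltransferase gene (0.38), Ak4, the gene of a mitochondrial adenylate kinase (0.39), Map7d2, a microtubule-associated protein gene (0.40), and Colec12, a scavenger receptor gene (0.45), followed. Ak4 (87 against 122 and 130) and Prmt2 (78 against 83 and 82) were also lowest in LNA Control replicate 2, and Map7d2 and Colec12 were not. The contrast that chose Car5b is part of these profiles, so the likeness is a description.

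Car11 (ENSMUSG00000003273, chromosome 7, positions 45699843 to 45704682), whose zinc positions carry no histidine codon, was listed at 8, 8, and 13 under LNA Control, then 9, 7, and 5 under LNA Malat1. The groups overlapped, and at this depth a change of moderate size was not detectable (log2 fold change -0.41, 95% interval -1.19 to 0.36, limma adjusted p = 0.42). A further 4 genes of the family have a row but were not on the list of members. Car5a, the other mitochondrial form, was listed at 1, 3, and 3 under LNA Control, then 4, 3, and 3 under LNA Malat1. Car6, which encodes a secreted form, Car9, which encodes a transmembrane form induced by hypoxia, and Car15, which encodes a membrane-anchored form, had at most 6 normalized counts in any library, and none of the 4 was tested.

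**Figure D3:**
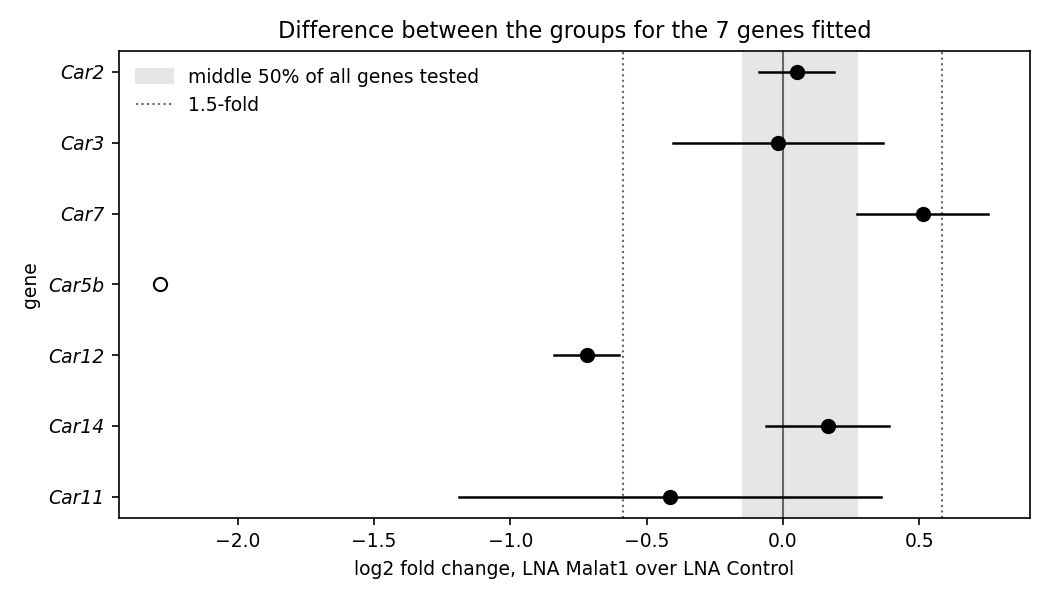
Log2 fold change of LNA Malat1 over LNA Control for the 7 genes fitted, with the 95% interval of the limma fit. Dotted lines mark 1.5-fold, the grey band holds the middle 50% of all genes tested (-0.15 to 0.27), and Car5b is drawn open and without an interval because it was chosen by this value. Car12 lies beyond the lower line and Car7 just inside the upper one.

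Levels were compared between genes as normalized counts per kilobase of exon. In LNA Control, Car2 stood highest with 100.7 to 111.1 per kilobase, followed by Car12 with 71.5 to 75.3, Car14 with 30.3 to 33.8, Car7 with 20.3 to 21.4, and Car3 with 10.5 to 14.3. The ranges of these neighbours did not overlap. Car11 (4.2 to 6.7) and Car5b (2.7 to 4.2) did overlap, and Car13 reached at most 0.43. Compared with all 15632 genes tested that have a length, the mean of Car2 lay at percentile 79.7, that of Car12 at 68.0, and that of Car5b at 9.8. In LNA Malat1, Car12 had 42.9 to 45.8 per kilobase, Car14 35.4 to 37.8, and Car7 26.7 to 33.5, so the distance between Car12 and the next genes was smaller while the order of the first 5 genes was the same. Of the level summed over the 8 genes, Car12 made up 28.4% to 30.0% in LNA Control and 18.0% to 19.4% in LNA Malat1. The share of Car2 was 40.2% to 42.6% and 45.2% to 47.0%, that of Car7 7.8% to 8.5% and 11.4% to 14.1%, and that of Car5b 1.1% to 1.7% and 0.2% to 0.3%. Shares of the same sum are not independent of each other. The level of Car2 overlapped between the groups, at 100.7 to 111.1 per kilobase in LNA Control and 107.8 to 111.5 in LNA Malat1. The sum itself was 250.0 to 261.8 in LNA Control and 234.3 to 242.0 in LNA Malat1. The order depends on the length used. By the longest transcript instead of all exons, Car12 (150.7) stood above Car2 (143.7), and Car5b (6.3) above Car11 (6.1).

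**Figure D4:**
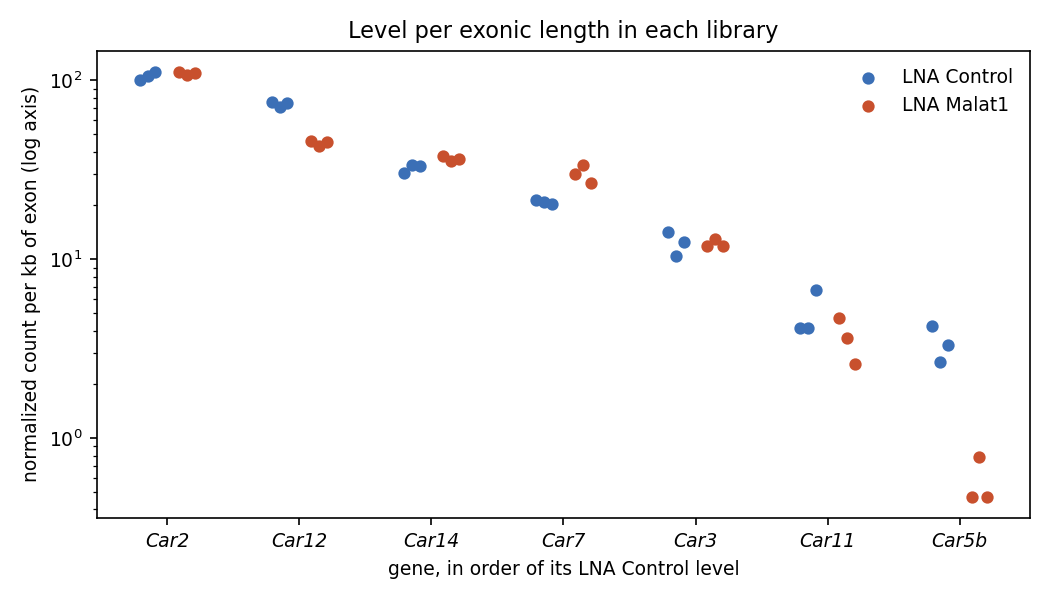
Normalized count per kilobase of exon in each library on a log axis, for the 7 genes fitted in order of their LNA Control mean. Car2 stands at about the same height in both groups, Car12 drops from 71.5 to 75.3 down to 42.9 to 45.8, and Car5b drops from the height of Car11 to below 0.8.

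Genes that handle bicarbonate and protons alongside the carbonic anhydrases were listed in 4 groups, 51 genes in all, of which 38 had a row and 30 were tested. Of these 30, 3 were called higher and 4 lower in LNA Malat1, against 8.00% and 2.92% of all genes tested (1252 and 457 genes, or 748 and 718 after quantile normalization). The number of all genes called higher was 769 without LNA Malat1 replicate 1, 871 without replicate 2, and 796 without replicate 3. With replicates 1 and 3 as 1 sample, 29 genes were tested and 5 of them called. Hvcn1 then did not pass (limma adjusted p = 0.098), and Slc26a9 was not tested. At the adjusted p alone, 6 were higher and 11 lower, against 14.3% and 14.0%, and 13 did not pass. The median log2 fold change of the 30 genes was -0.14. Slc26a9 and Slc4a5, which reached the filter only through LNA Malat1, were included in it.

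Of 10 genes tested on the bicarbonate transporter list, 3 were called higher and 0 lower, against 8.00% and 2.92% of all genes tested. The median log2 fold change of the 10 was 0.44. Of the 3 called, Slc4a11 and Slc26a9 had means under 20 normalized counts. Among all genes tested in that range, 17.2% were called higher and the median log2 fold change was 0.37. Slc26a9, and Slc4a5, which was not called, had LNA Control means of 1.3 and 2.7. Both reached the filter only through their LNA Malat1 values, so their being higher there was tied to their being tested. Both were included in the median of the 10, and Slc26a9 among the 3 called. Slc4a11, an atypical member of its family that conducts protons or hydroxide, had 1, 8, and 8 under LNA Control, then 32, 31, and 29 under LNA Malat1 (log2 fold change 2.54, limma adjusted p = 0.0021). It was 1.81 without LNA Control replicate 1, the lowest library. Slc26a7, an anion exchanger gene, had 58, 61, and 94 under LNA Control, then 128, 137, and 153 under LNA Malat1, with no overlap (log2 fold change 0.99, limma adjusted p = 0.00063). Slc26a9, an anion transporter gene, was listed at 3, 0, and 1 against 8, 8, and 12, and it fell under the filter on low values without any one of the LNA Malat1 libraries.

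The sodium bicarbonate cotransporter genes Slc4a4 and Slc4a7 differed in opposite directions, both past the adjusted p and under the fold minimum. Slc4a4, which encodes an electrogenic cotransporter of heart muscle, had 1837, 1795, and 1716 under LNA Control, then 1149, 1236, and 1204 under LNA Malat1 (log2 fold change -0.58, limma adjusted p = 9.3e-06), just under the 1.5-fold minimum. Without LNA Control replicate 3 or LNA Malat1 replicate 2, or with median-of-ratios scaling, it was past that minimum. Slc4a7, which encodes an electroneutral cotransporter, had 507, 451, and 482 under LNA Control, then 690, 663, and 652 under LNA Malat1 (log2 fold change 0.48, limma adjusted p = 6.6e-05). The anion exchanger gene Slc4a2 was close to level (-0.06 on the log2 scale, adjusted p = 0.47 by limma).

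Of 9 proton and lactate transporter genes tested, 2 were called lower and 0 higher, against 2.92% and 8.00% of all genes tested. Slc16a3, the gene of the lactate exporter MCT4, had 606, 552, and 569 under LNA Control, then 351, 373, and 388 under LNA Malat1 (log2 fold change -0.63, limma adjusted p = 9.9e-06). After quantile normalization it was -0.57, under the 1.5-fold minimum. The LNA Malat1 libraries were all lower, as they were for Slc16a1, the gene of MCT1, by a smaller amount (log2 fold change -0.19, limma adjusted p = 0.026). Hvcn1, a proton channel gene, had 20, 33, and 22 against 15, 14, and 14 (log2 fold change -0.73, limma adjusted p = 0.045). This call was lost under 9 of 15 alternatives. Among them were leaving out LNA Control replicate 2 or any one of the LNA Malat1 libraries (limma adjusted p up to 0.18). Others were library totals set equal, no filter on low values, and voom on recovered reads (limma adjusted p = 0.056, 0.060, and 0.079). Slc9a7, the gene of an organellar sodium-proton exchanger, was higher at an adjusted p of 0.044 by limma (log2 fold change 0.33).

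Among 8 genes of enzymes that consume bicarbonate, 1 was called lower, against 2.92% of all genes tested. At the adjusted p alone 5 were lower, that gene included, and 1 was higher, against 14.0% and 14.3%. The other 2 did not pass. Mccc2 and Mccc1 encode the subunits of mitochondrial methylcrotonyl-CoA carboxylase and differed in direction. Mccc2 fell from 192, 197, and 197 under LNA Control to 114, 98, and 102 under LNA Malat1 (log2 fold change -0.90, limma adjusted p = 9.95e-06), whereas Mccc1 had 333, 344, and 335 against 386, 391, and 391 (log2 fold change 0.21, limma adjusted p = 0.012). Pcca and Pccb, of mitochondrial propionyl-CoA carboxylase, had log2 fold changes of -0.52 and -0.24 (limma adjusted p = 0.00026 and 0.025). Cad, the gene of pyrimidine synthesis that includes a carbamoyl phosphate synthase, had -0.47 (limma adjusted p = 0.00057), and Acaca, of cytosolic fatty acid synthesis, -0.17 (limma adjusted p = 0.032). Pcx, the gene of mitochondrial pyruvate carboxylase, had -0.11 (limma adjusted p = 0.16). Acacb, the other gene that did not pass, had 0.18 (limma adjusted p = 0.058).

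In the list of sensors, gas channels, and carbonic anhydrase partners, 3 genes were tested. Ptprg, which encodes a receptor phosphatase with an inactive carbonic anhydrase-like domain outside the cell, fell from 764, 702, and 635 under LNA Control to 371, 379, and 399 under LNA Malat1. The groups lay far apart (log2 fold change -0.87, SE 0.07, limma adjusted p = 2.4e-06). Itpr1, the gene of an inositol trisphosphate receptor that binds the carbonic anhydrase-related protein Car8, was lower at an adjusted p of 0.001 by limma (log2 fold change -0.31). Gpld1, which encodes a phospholipase that releases anchored membrane proteins, had -0.36 with overlapping groups (limma adjusted p = 0.30).

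**Figure D5:**
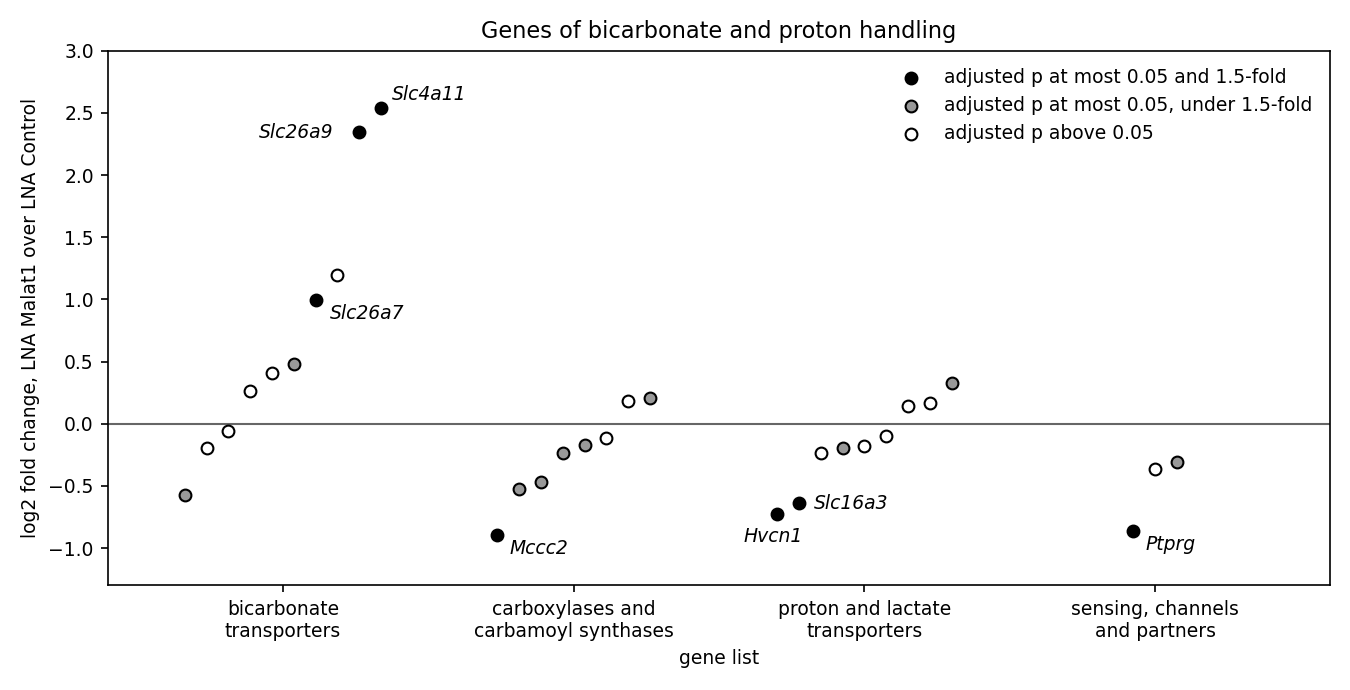
Log2 fold change of LNA Malat1 over LNA Control for the 30 tested genes of bicarbonate and proton handling, by list. Black points were called, grey points passed the adjusted p but not the 1.5-fold minimum, and white points did not pass. The 3 genes called higher are all on the bicarbonate transporter list, and the 4 called lower are spread over the other 3 lists. Of all genes tested, 8.00% were called higher and 2.92% lower. Slc4a11 and Slc26a9 have means under 20, where 17.2% of genes were called higher, and Slc26a9 reached the filter only through LNA Malat1.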

How the data were processed

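RNA was sequenced from 3 LNA Control and 3 LNA Malat1 libraries. The authors trimmed reads with Trimmomatic 0.39, aligned them to mm10 (Ensembl annotation) with STAR 2.7.7a, and counted reads touching exons per gene with featureCounts 1.6.5, leaving out reads on several genes or regions. The deposited values are a score, the count normalized by one factor per library by the authors and rounded to whole numbers. They are not raw counts, so limma 3.58.1 (trend, two-sided, Benjamini-Hochberg over all genes tested) in R 4.3.3 was used on log2(normalized count + 1), which understates changes of low genes, for genes with a mean of at least 5. The fit was run on data simulated with the same spread in both groups, which leaves the unequal spread of the real groups unchecked. The factor per library, and with it the reads, was recovered from the gaps and repeats left by rounding. The chi-square comparison of libraries covers counting error alone, as no molecular identifiers were counted.

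Exonic lengths and coding sequences came from GENCODE M21 (same build). It holds 21224 of the 21269 genes. Proteins were translated from the principal transcripts and aligned with Biopython 1.88 (BLOSUM62), since no protein table was used here. Members and lists were chosen with earlier results of these data known. Named were all members, other Car genes, neighbours within 200 kb of Car5b and 50 kb of the chromosome 3 cluster, list genes called or past the adjusted p, and the 5 genes with profiles closest to Car5b. The list genes named beside them that did not pass the test (Slc4a2, Slc4a5, Pcx, Acacb, and Gpld1) were chosen after their values were seen. Alternatives covered the replicate block, pseudocount, scaling, filters, fold minimum, left-out libraries, LNA Malat1 replicates 1 and 3 as 1 sample, and the length used. limma's voom on recovered reads was chosen after seeing the data.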

Additional observations from a re-analysis of the deposited data

How the results depend on the processing

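Apart from Car5b, 1 member (Car12) was called. Without a fold minimum there were 2 (Car7 added), and at 2-fold 0. With each library left out, 1 to 2 members were called, the added one being Car7 without LNA Malat1 replicate 3. All other alternatives called Car12 alone. Of the genes of bicarbonate and proton handling, 7 were called, 5 to 8 with each library left out, 4 with a mean of at least 50 (24 genes tested in place of 30), 17 without a fold minimum, and 2 at 2-fold. Correlations of the deviations of equally numbered libraries were 0.086, 0.182, and 0.083, so the numbers were not taken as pairs. With the replicate block, 1 member and 6 of the list genes were called, Hvcn1 being lost (limma adjusted p = 0.054), and 1739 genes in all. The log2 fold change of Car5b ranged from -2.99 (quantile normalization) to -1.61 (pseudocount of 5), and with a mean of at least 50 it was not tested. The cause of these shifts was not tested. The adjusted p of Acaca, Pccb, Slc16a1, and Slc9a7 rose above 0.05 under some alternatives, to at most 0.17, 0.11, 0.14, and 0.19. Scaling moved the balance of all calls, with 1252 higher and 457 lower as deposited, and 748 and 718 after quantile normalization. Depth limits Car5b, Car11, and Car13, each with at most 27 normalized counts in any library.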
